A study of Mus musculus with 12 samples.

Results

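Transcripts of the PI3K, Akt and mTOR pathway were followed through the cortex of 12 adult female mice. The set holds 33 genes, chosen by name around Akt2, and was defined as every spot, controls left out, to which the array design gives one of these gene names. All 33 were found among the 29608 gene names on the array, on 71 spots of 62 different probes. After removal of uneven, outlying and dim spots, 30 of the 33 could be measured, among 17302 genes in all. Pik3cg and Tsc2 were left out as dim, and the only spot of Inpp5d was marked by the scanner software. The RNA came from 4 MRL/lpr mice, which carry the lpr mutation of the death receptor Fas and develop lupus-like disease, from 4 Fn14ko mice, which are MRL/lpr mice that also lack Fn14, the receptor of the cytokine TWEAK, and from 4 MRL/+ mice (MRL/MpJ), which lack lpr. All were about 12 weeks old and in diestrus. The MRL/lpr and Fn14ko mice were bred as littermates at a facility other than the supplier of the MRL/+ mice, so source and genotype cannot be told apart in comparisons with MRL/+.

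In this pathway the insulin receptor and related receptors recruit insulin receptor substrates, which bring class I PI3K to the membrane. The kinase makes a lipid second messenger that draws PDK1 and Akt to the membrane, where Akt is activated, and Akt then restrains the GSK3 kinases, the FoxO transcription factors and the TSC complex. TSC holds the small GTPase Rheb and thereby the kinase mTOR in check, and mTOR complex 1 drives protein synthesis through S6 kinases and the 4E-binding proteins. Transcript levels alone do not show the activity of these kinases, which is set largely by phosphorylation.

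Akt2 was probed by 4 different 60-base oligonucleotides on the plus strand of chromosome 7 of mm9, the build of the files. Their first 30 bases are shown because the measured change of Akt2 depended on which of them was read. Capitals mark the bases that the overlapping probes A_55_P2066518 (chr7:28424405-28424464) and A_55_P2025228 (chr7:28424412-28424471) share within the stretch shown. These 2 probes are offset by 7 bases and have 53 bases in common. A_55_P2066523 (chr7:28418226-28418285) lies upstream of the pair and A_66_P135179 (chr7:28425375-28425434) downstream. The exon and the transcript region under each probe were not analysed here.
A_55_P2066523: gtatgccttccagacccatgaccgcctatg
A_55_P2066518: ctgctggCCTTTCCTTACTCCTCGTATTTG
A_55_P2025228: CCTTTCCTTACTCCTCGTATTTGtacggta
A_66_P135179: ctgttcctgtagtgaacacacgtgtctacg

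Each of 6 Agilent arrays paired 2 mice of one genotype. The odd-numbered mouse (1 or 3) was labelled with Cy3, the even-numbered one (2 or 4) with Cy5. A slide held a single genotype, so the effects of slide and genotype cannot be told apart. With 2 arrays a group, precision is limited by their number. The 2 Cy5 channels of MRL/+ stood apart, where dark control spots exceeded local background 6.06-fold and 6.30-fold, compared with 1.10-fold to 2.62-fold in the other 10 channels, and called differences from MRL/+ are therefore also given without these 2 mice. Signals are in units of the median retained spot of the channel. The same 4 MRL/+ mice serve both comparisons against MRL/+, so those are not independent. Differences are on the log2 scale, and adjusted p-values are from limma with Benjamini-Hochberg adjustment over all 17302 genes.

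Few of the measured transcripts were called, and how many depended on the processing. The share called in MRL/lpr against MRL/+ was close to that of all genes. In MRL/lpr against MRL/+, 4 of 30 passed the threshold of 0.05 (13.3%), against 14.4% of all genes. Akt2, Pik3r3 and Tsc1 were higher, where 6.03% of all genes were higher, and Foxo1 was lower, where 8.37% of all genes were lower. In Fn14ko against MRL/+, 1 of 30 passed, the lower Pik3r1, against 0.954% of all genes (0.237% higher and 0.717% lower). In MRL/lpr against Fn14ko, 1 of 30 passed, the lower Foxo1, against 4.57% of all genes (2.58% higher and 1.99% lower). In these comparisons 9, 9 and 5 of the 30 had an unadjusted p under 0.05 from limma. Of all 17302 genes, 6010, 3790 and 3216 did. The split by direction depended on the scaling: against MRL/+, the called genes of MRL/lpr were 1 higher and 6 lower when channels were set to their 75th percentile, and 2 higher and 8 lower with loess and quantile scaling, where Pik3r3 and Tsc1 lost their call in both. The median log2 difference over the 30 was 0.06, 0.09 and -0.05, beside -0.10, -0.10 and -0.07 over all genes. The 4 mice of each group did not overlap for 10 of 30 in MRL/lpr against MRL/+ (23.9% of all genes), for 7 in Fn14ko against MRL/+ (13.5%) and for 3 in MRL/lpr against Fn14ko (20.3%).

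**Figure D1:**
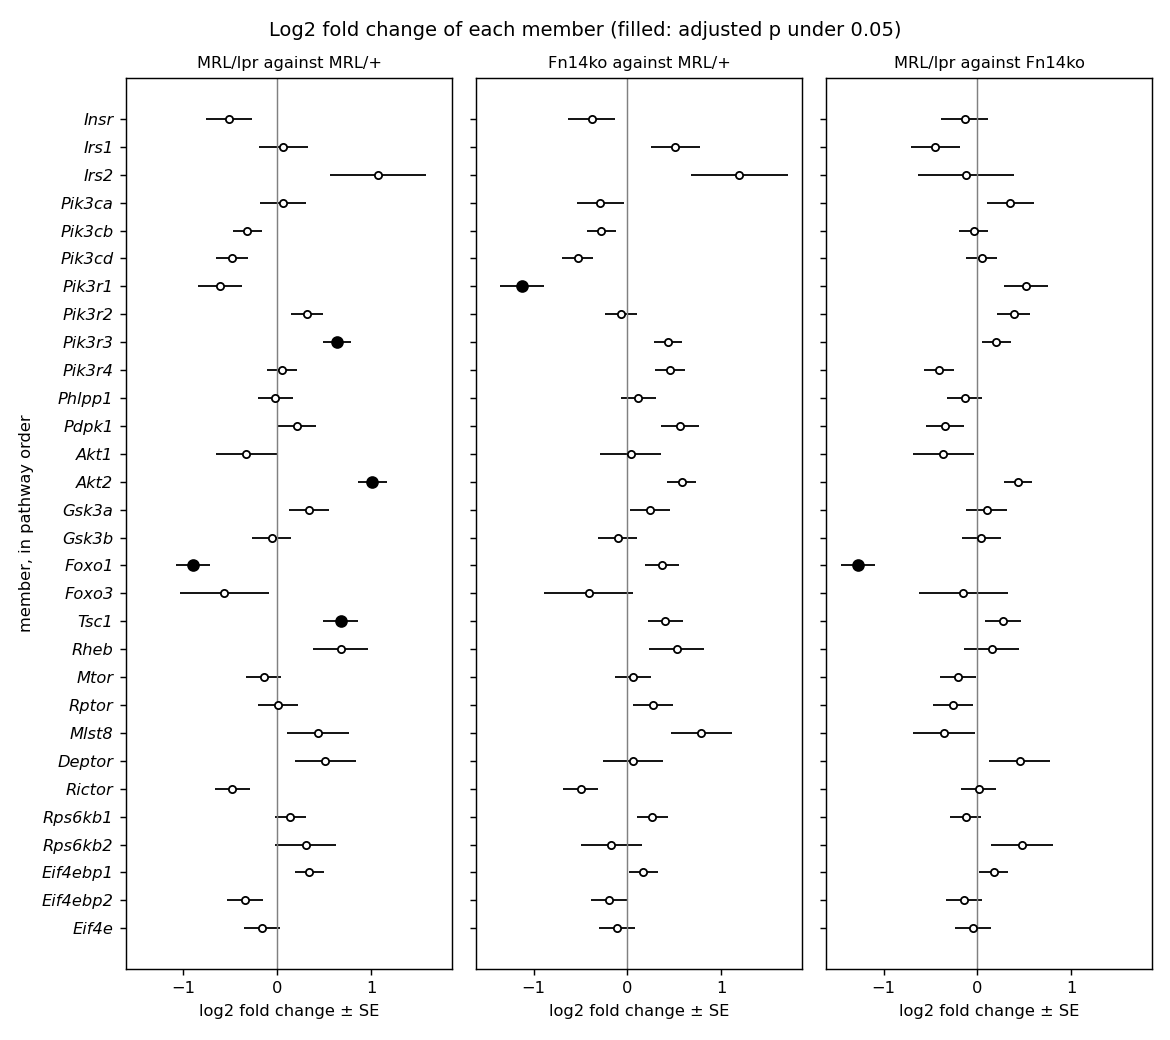
Log2 fold change of the 30 measured genes in the 3 comparisons, with the standard error from limma. Filled points passed the threshold: 4 in the first panel, 1 in the second and 1 in the third, and no gene was filled in all 3 panels.

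Among the genes at the membrane, none passed the threshold in any comparison. Irs2, an adaptor that links the insulin receptor to PI3K, had the largest differences from MRL/+ among the genes that missed it. Its single probe read 6.89, 6.50, 7.54 and 6.23 in MRL/lpr replicates 1 to 4, 7.98, 8.99, 6.15 and 6.67 for the Fn14ko mice, and 5.87, 2.12, 7.33 and 1.18 for the MRL/+ mice. The MRL/+ mice were split by dye: both Cy5 mice lay below every other mouse, and of the Cy3 mice one was within the range of the other groups and one just under it. The log2 difference was 1.07 ± 0.51 (SE, n = 4 mice per group) for MRL/lpr (adjusted p = 0.156 from limma) and 1.19 ± 0.51 for Fn14ko (adjusted p = 0.207), both against MRL/+. With Agilent's processed signal these became -0.20 and -0.06. Irs1, the related adaptor, differed by 0.06 in MRL/lpr and 0.51 in Fn14ko. Insr, the receptor itself, kept 2 of its 4 probes and differed by -0.52 ± 0.25 in MRL/lpr (adjusted p = 0.153) and -0.38 ± 0.25 in Fn14ko (adjusted p = 0.333).

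Of the PI3K subunits, Pik3r3 and Pik3r1 passed the threshold, each in a different comparison, and no catalytic subunit did. Under alternative processing or fits, Pik3cb passed as lower in MRL/lpr than in MRL/+ in 5 of 33 and Pik3cd in 4 of 34. Those fits called 17.2% to 33% of all genes. For Fn14ko each passed as lower in 2, where 10.9% to 16.4% were called. Of the catalytic subunits, Pik3ca differed by 0.06 in MRL/lpr and -0.29 in Fn14ko, Pik3cb by -0.32 and -0.28, and Pik3cd, which is best known from leukocytes, by -0.49 and -0.53, all against MRL/+. For Pik3cd every mouse of MRL/lpr and Fn14ko was below every MRL/+ mouse, at 0.537 to 0.704 against 0.740 to 1.05, but the adjusted p was 0.0685 and 0.125. The regulatory subunits, which hold the catalytic subunit and place it at the receptor, included the called genes Pik3r3 and Pik3r1, which differed in opposite directions.

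Pik3r3, which encodes the regulatory subunit p55 gamma, had signals of 2.97, 2.42, 2.81 and 2.34 for the MRL/lpr mice, 2.29, 1.88, 2.74 and 2.29 for the Fn14ko mice, and 1.70, 1.45, 1.86 and 1.77 for the MRL/+ mice. All MRL/lpr mice were above all MRL/+ mice, and so were all Fn14ko mice. The difference was 0.63 ± 0.15 (SE, n = 4) in MRL/lpr against MRL/+ (adjusted p = 0.0172 from limma; exact permutation p = 0.0286, the smallest that 4 against 4 mice allow, two-sided). In Fn14ko against MRL/+ it was 0.43 ± 0.15 (adjusted p = 0.155). MRL/lpr and Fn14ko overlapped, and their difference of 0.20 did not pass (adjusted p = 0.543). Without the Cy5 mice of MRL/+ the difference of MRL/lpr was 0.70 (adjusted p = 0.0477 from limma). Leaving out a whole array of MRL/lpr, 2 of its 4 mice, ended the call (adjusted p = 0.132 and 0.0840), as did leaving out the array with replicates 1 and 2 of MRL/+ (0.069).

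Pik3r1, which encodes the widely expressed regulatory subunit p85 alpha, read 0.970, 0.568, 0.746 and 0.938 for the MRL/lpr mice, 0.609, 0.492, 0.638 and 0.480 for the Fn14ko mice, and 0.966, 1.09, 1.49 and 1.33 for the MRL/+ mice. The Fn14ko mice were all below the MRL/+ mice, and the MRL/lpr mice lay between and overlapped with both. The log2 difference was -1.13 ± 0.23 (SE, n = 4) in Fn14ko against MRL/+ (adjusted p = 0.0434 from limma; exact permutation p = 0.0286). It was -0.61 ± 0.23 in MRL/lpr against MRL/+ (adjusted p = 0.0931) and 0.52 ± 0.23 between MRL/lpr and Fn14ko (adjusted p = 0.259). The direct comparison of the 2 lpr groups was thus not past the threshold. In MRL/lpr against MRL/+, Pik3r1 passed as lower in 8 of 32 alternatives, where 10.1% to 33% of all genes were called. The call in Fn14ko held in 18 of 32 alternatives. It was lost with Agilent's processed signal and with marked spots kept. It was also lost when any of Fn14ko replicates 2, 3 and 4, MRL/+ replicate 4 or MRL/lpr replicates 1 and 3 was left out. There the adjusted p was 0.0512 to 0.332 and the difference -1.08 to -1.18. Without the Cy5 mice of MRL/+ the difference was -0.98 (adjusted p = 0.428). The only probe of Pik3r1 was well above background in 3 of 4 MRL/+ mice and in all mice of the other groups. The fit limited to spots well above background in every mouse therefore left it out.

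Of the other regulatory subunits, Pik3r2 differed from MRL/+ by 0.32 (MRL/lpr) and -0.07 (Fn14ko). Pik3r4, the adaptor of the class III enzyme Vps34, was read by 10 spots of the same probe. Its signals were 2.22 to 2.46 for the MRL/lpr mice, 2.90 to 3.40 for the Fn14ko mice and 2.06 to 2.68 for the MRL/+ mice. Every Fn14ko mouse was above every mouse of the other groups, by 0.46 ± 0.16 against MRL/+ (adjusted p = 0.15), and MRL/lpr differed from Fn14ko by -0.41 ± 0.16 (adjusted p = 0.188). Phlpp1, a phosphatase that removes phosphate from Akt, stayed within 0.14 of 0 in every comparison. Inpp5d, the lipid phosphatase SHIP1, gave no value.

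Pdpk1, which encodes PDK1, the kinase that phosphorylates Akt in its activation loop, differed by 0.56 ± 0.20 in Fn14ko against MRL/+ without passing the threshold (adjusted p = 0.163), although the 4 Fn14ko mice, at 4.07 to 5.84, were all above the MRL/+ mice, at 2.53 to 4.01. In MRL/lpr it differed by 0.21. Akt1, the most widely expressed Akt gene, had means of 16.0 ± 6.15 for the MRL/lpr mice, 19.5 ± 2.61 for the Fn14ko mice and 19.3 ± 4.79 for the MRL/+ mice (SD, n = 4). Its difference of -0.33 ± 0.32 in MRL/lpr (adjusted p = 0.470) and 0.03 ± 0.32 in Fn14ko (adjusted p = 0.95) was no larger than about 1 standard error. Akt1 and Akt2 were therefore not past the threshold together in any comparison.

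Akt2, the Akt gene best known for its part in insulin action, read 5.24, 5.85, 4.83 and 5.93 for the MRL/lpr mice, 4.00, 4.06, 3.93 and 4.13 for the Fn14ko mice, and 2.70, 2.58, 2.66 and 2.87 for the MRL/+ mice as the mean over its probes. Every single probe overlapped between MRL/lpr and Fn14ko, whereas on this mean the 3 groups did not overlap, with Fn14ko in between. The difference was 1.01 ± 0.15 (SE, n = 4) in MRL/lpr against MRL/+ (adjusted p = 0.00152 from limma). For Fn14ko against MRL/+ it was 0.58 ± 0.15 (adjusted p = 0.0839), and between MRL/lpr and Fn14ko 0.43 ± 0.15 (adjusted p = 0.133). The exact permutation p was 0.0286 in each of the 3. Without the Cy5 mice of MRL/+ the first difference was 0.95 (adjusted p = 0.0148 from limma).

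The probes of Akt2 did not tell the same story. A_55_P2025228 read 9.54, 11.7, 9.26 and 11.7 for the MRL/lpr mice, 5.50, 9.47, 7.21 and 7.63 for the Fn14ko mice, and 4.44, 3.99, 3.67 and 2.54 for the MRL/+ mice. A_55_P2066518 read 9.81, 10.2, 8.64 and 10.2 for the MRL/lpr mice, 8.83, 5.54, 7.09 and 7.86 for the Fn14ko mice, and 4.58, 4.23, 5.01 and 6.05 for the MRL/+ mice. Tested singly, both exceeded MRL/+ in the MRL/lpr mice, by 1.55 ± 0.26 (adjusted p = 0.00290 from limma) and 0.98 ± 0.23 (adjusted p = 0.0147), where 15.0% of all probes were called. Without the Cy5 mice of MRL/+, a single-probe fit added after the data were seen, the first passed (1.19, adjusted p = 0.0198) and the second did not (1.05, adjusted p = 0.0609), where 5.08% were called. Within a group these overlapping probes ranked the mice differently: Fn14ko replicate 2 was the highest of its group in the first and the lowest in the second, and so was Fn14ko replicate 1 the other way round. For the MRL/+ mice the mean over all Akt2 probes was 2.70 with an SD of 0.12, against SDs of 0.81 and 0.79 for these probes. That mean also holds dimmer probes, so these SDs are not on a like scale. MRL/+ replicate 4 was the lowest of its group in the first probe (2.54) and the highest in the second (6.05). Such opposite deviations offset each other in the mean, so its small SD does not show the spread of the single probes.

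A_55_P2066523, upstream of the pair, differed in the other direction. Its signals were 0.858, 0.638, 0.790 and 1.09 in MRL/lpr, 0.852, 0.612, 0.704 and 0.572 in Fn14ko, and 1.13, 1.37, 1.35 and 1.99 in MRL/+. Every MRL/lpr and every Fn14ko mouse was below every MRL/+ mouse, by -0.78 ± 0.27 (adjusted p = 0.0613 from limma) and -1.08 ± 0.27 (adjusted p = 0.0688). In single-probe fits added after the data were seen, both passed. With the background taken from the dark control spots, MRL/lpr differed from MRL/+ by -0.83 (adjusted p = 0.0162 from limma, where 25.2% of all probes were called) and Fn14ko by -1.17 (adjusted p = 0.00657, where 16.7% were called). With Agilent's processed signal the values were -0.84 (adjusted p = 0.0408, where 17.7% were called) and -1.15 (adjusted p = 0.0228, where 6.29% were called). They were -0.48 (adjusted p = 0.423) and -0.775 (adjusted p = 0.539) without the Cy5 mice of MRL/+. In Fn14ko, A_55_P2025228 also passed with the dark control background, in the opposite direction (0.96, adjusted p = 0.0259). A_66_P135179, downstream, read 0.621 to 0.893 in MRL/lpr, 0.448 to 0.827 in Fn14ko and 0.589 to 0.887 in MRL/+, and its difference was 0.05 in MRL/lpr and -0.17 in Fn14ko. It was well above background in 2 of 4 MRL/+ mice and in all mice of the other groups. The overlapping pair made up most of the summed signal of the 4 probes, so the mean on the linear scale followed it. With the log2 values of the probes averaged instead, so that each counted alike, the difference of Akt2 fell to 0.45 in MRL/lpr (adjusted p = 0.0773 from limma) and to 0.08 in Fn14ko.

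**Figure D2:**
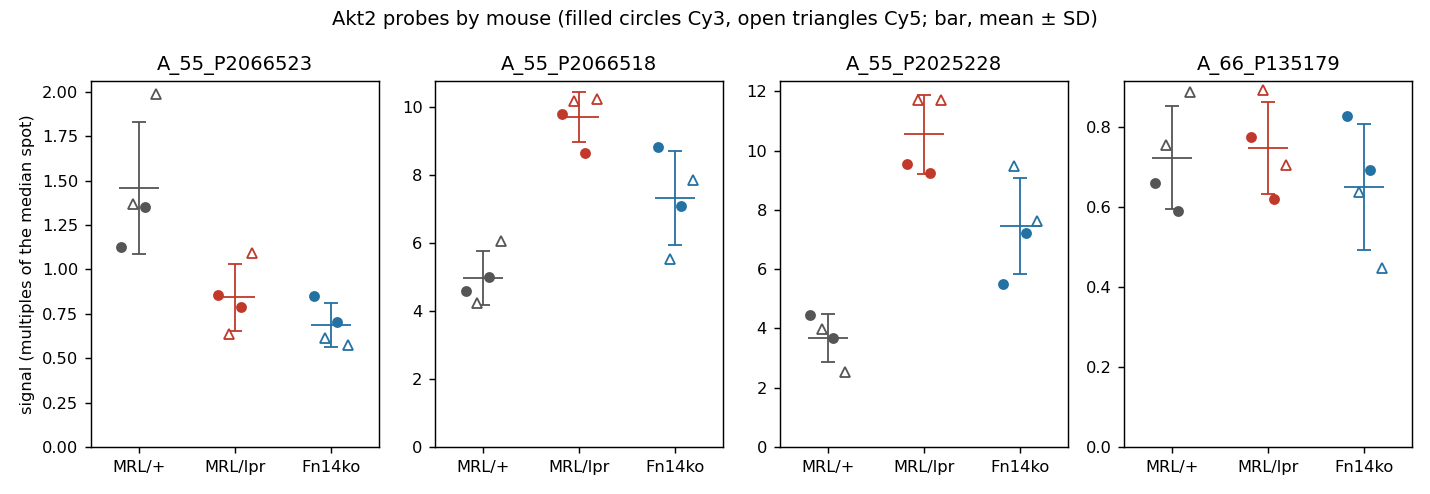
Signal of the 4 Akt2 probes, in genome order from left to right, in each mouse of MRL/+, MRL/lpr and Fn14ko, in multiples of the median spot, with the group mean and SD (n = 4); the axes differ between panels. The overlapping middle probes were higher in every MRL/lpr mouse than in every MRL/+ mouse, the leftmost probe was lower, and the rightmost overlapped between groups.

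Among the direct targets of Akt, the forkhead factor Foxo1 differed most. Foxo1 activates genes of metabolism, stress resistance and growth arrest, and Akt keeps it out of the nucleus. Its signals were 1.58, 1.36, 2.20 and 1.74 for the MRL/lpr mice, 4.96, 4.03, 3.76 and 3.71 for the Fn14ko mice, and 3.13, 3.19, 3.16 and 3.19 for the MRL/+ mice. The MRL/lpr mice were all below the MRL/+ mice and the Fn14ko mice all above them. The difference was -0.90 ± 0.18 (SE, n = 4) in MRL/lpr against MRL/+ (adjusted p = 0.00754 from limma), 0.37 ± 0.18 in Fn14ko against MRL/+ (adjusted p = 0.249) and -1.27 ± 0.18 between MRL/lpr and Fn14ko (adjusted p = 0.00206). The exact permutation p was 0.0286 in each.

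The probes of Foxo1, which do not overlap on chromosome 3 of mm9 (chr3:52150183-52150242 and chr3:52153289-52153348), agreed in direction. Tested singly, they differed by -0.82 ± 0.19 and -1.0 ± 0.20 in MRL/lpr against MRL/+ (adjusted p = 0.0145 and 0.00617 from limma) and by -1.25 and -1.30 between MRL/lpr and Fn14ko (adjusted p = 0.00289 and 0.00274, where 4.03% of all probes were called). Among the Cy3 mice alone the difference from Fn14ko was -1.21 (adjusted p = 0.0162 from limma), and without the filter on dim spots -1.40 (adjusted p = 0.458). Against MRL/+, the difference was -0.78 (adjusted p = 0.0619) without the Cy5 mice of MRL/+, -0.75 (0.0675) among the Cy3 mice, -0.69 (0.111) without the array with replicates 1 and 2 of MRL/lpr, and -0.30 (0.672) without the filter on dim spots. Tested singly without the Cy5 mice of MRL/+, the probes differed by -0.68 (adjusted p = 0.112 from limma) and -0.91 (adjusted p = 0.0475). Excitatory neuron markers, read beside Foxo1, went in both directions. Against Fn14ko, 2 were higher and 2 lower in MRL/lpr. The summed signal of 10 cortical excitatory neuron markers was 43.6 to 49.3 for the MRL/lpr mice, 55.4 to 74.6 for the Fn14ko mice and 61.9 to 90.8 for the MRL/+ mice. Of the 10, 3 were higher and 4 lower in MRL/lpr than in MRL/+, and the defining markers Slc17a7 and Tbr1 differed by -1.08 and 1.53. In a whole tissue, fewer cells of a type and less RNA per cell cannot be told apart, and the part of such a shift in the Foxo1 result was not tested.

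Foxo3, the related factor, had means of 0.204 for the MRL/lpr mice, 0.233 for the Fn14ko mice and 0.332 for the MRL/+ mice, and its difference of -0.56 ± 0.47 in MRL/lpr missed the threshold (adjusted p = 0.397). Its direction depended on the processing. With loess and quantile scaling Foxo3 was higher than in MRL/+ in both lpr groups, by 0.56 (adjusted p = 0.00553 from limma) and 0.80 (adjusted p = 0.00473), and with the dark control background MRL/lpr differed by 0.23 (adjusted p = 0.55). Gsk3a, a kinase that Akt inhibits by phosphorylation, had means of 26.3 ± 3.03, 24.8 ± 4.07 and 21.0 ± 3.69 (SD, n = 4) in MRL/lpr, Fn14ko and MRL/+, and differed by 0.34 and 0.24 against MRL/+, neither past the threshold. Its relative Gsk3b, which is abundant in brain, differed by -0.06 and -0.10 as a mean of 3 probes. With Agilent's processed signal this mean passed as lower in both, by -0.49 (adjusted p = 0.0341 from limma) and -0.60 (adjusted p = 0.0312). In that fit 17.7% and 5.85% of all genes were called. The probes disagreed: A_51_P514412, whose mm9 coordinates span chr16:38187987-38191632, more than the length of the probe, read 0.452, 0.227, 0.366 and 0.337 for the MRL/lpr mice, 0.532, 0.444, 0.391 and 0.310 for the Fn14ko mice, and 0.708, 0.596, 0.765 and 0.524 for the MRL/+ mice. On it every MRL/lpr mouse was below every MRL/+ mouse, by -0.94 ± 0.24 (adjusted p = 0.0215 from limma). This was -0.92 (adjusted p = 0.132) without the Cy5 mice of MRL/+. It was well above background in 3 of 4 MRL/lpr, 4 of 4 Fn14ko and 2 of 4 MRL/+ mice. The other probes differed by 0.09 and -0.02.

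**Figure D3:**
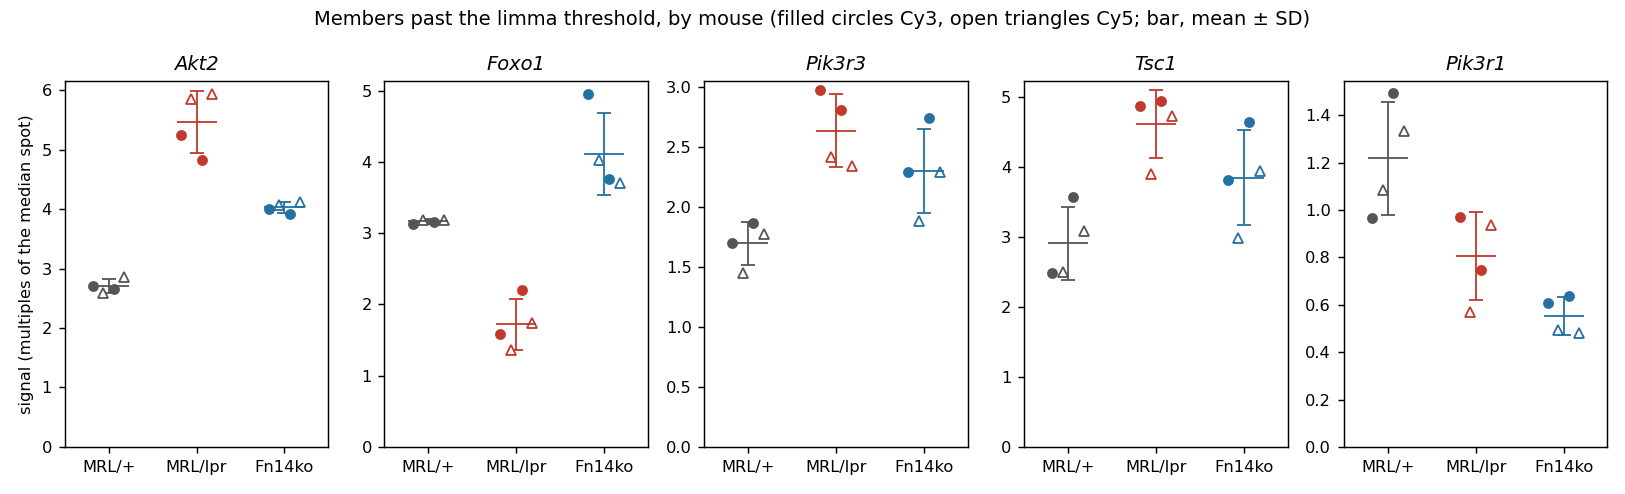
Signal of the 5 genes past the limma threshold in any comparison, by mouse, in multiples of the median spot, with the group mean and SD (n = 4 per group). Foxo1 was lowest in MRL/lpr and highest in Fn14ko, Akt2 was highest in MRL/lpr, and for Pik3r1 the Fn14ko mice were below all MRL/+ mice.

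Between Akt and mTOR, Tsc1 passed the threshold. Tsc1 encodes hamartin, which stabilizes the TSC complex that restrains Rheb. It read 4.87, 3.90, 4.95 and 4.74 for the MRL/lpr mice, 3.81, 2.99, 4.65 and 3.95 for the Fn14ko mice, and 2.49, 2.5, 3.58 and 3.08 for the MRL/+ mice. The MRL/lpr mice were all above the MRL/+ mice, and Fn14ko overlapped with both. The difference was 0.67 ± 0.19 (SE, n = 4) in MRL/lpr against MRL/+ (adjusted p = 0.0318 from limma; exact permutation p = 0.0286). It was 0.40 ± 0.19 in Fn14ko against MRL/+ (adjusted p = 0.231) and 0.27 ± 0.19 between MRL/lpr and Fn14ko (adjusted p = 0.493). The call was lost without MRL/lpr replicate 1, 3 or 4 or MRL/+ replicate 1 or 4, with differences of 0.57 to 0.70 and adjusted p of 0.0554 to 0.106. Without the Cy5 mice of MRL/+ it was 0.74 (adjusted p = 0.0919).

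Rheb, the GTPase that activates mTOR complex 1, differed by 0.67 ± 0.29 in MRL/lpr against MRL/+, about as much as Tsc1 but with a larger error (adjusted p = 0.125). Its signals were 1.65, 2.16, 1.75 and 2.08 for the MRL/lpr mice, 1.34, 1.61, 1.73 and 2.27 for the Fn14ko mice, and 1.49, 1.07, 1.58 and 0.790 for the MRL/+ mice. All MRL/lpr mice were above all MRL/+ mice, whose Cy5 mice were the lowest. The 2 probes behind it share 50 of their bases. Tsc2, the partner of Tsc1, gave no value.

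None of the genes of the mTOR complexes passed the threshold, though Rictor, Deptor and Mlst8 did under some of the 32 alternatives. Mtor itself differed by -0.15 ± 0.19 in MRL/lpr (adjusted p = 0.590) and 0.06 ± 0.19 in Fn14ko (adjusted p = 0.844). Rptor, the scaffold of complex 1, differed by 0.01 and 0.27. Rictor, the scaffold of complex 2, differed from MRL/+ by about the same amount in both lpr groups, with -0.48 ± 0.19 (adjusted p = 0.0940) and -0.49 ± 0.19 (adjusted p = 0.173). Its signal was 0.619 to 0.738 for the MRL/lpr mice, 0.612 to 0.864 for the Fn14ko mice and 0.822 to 1.07 for the MRL/+ mice. Rictor passed as lower than MRL/+ in 8 of the 32 alternatives for MRL/lpr and in 3 for Fn14ko. Among the 8 were the 75th percentile, loess with quantile scaling and the dark control background. The 8 fits called 15.5% to 33% of all genes, and the 3 for Fn14ko called 10.9% to 16.4%. The difference of Rictor for MRL/lpr ranged from -0.72 to 0.12, the latter without the filter on dim spots. Deptor, an inhibitor of both complexes, differed by 0.51 ± 0.32 in MRL/lpr (adjusted p = 0.257), with no overlap between the groups, and by 0.06 in Fn14ko. With Agilent's processed signal the first of these was 1.45 and passed (adjusted p = 0.0244 from limma), where 17.7% of all genes were called. Mlst8, a subunit of both, read 2.54, 2.25, 2.67 and 1.64 for the MRL/lpr mice, 2.74, 2.95, 3.19 and 2.61 for the Fn14ko mice, and 2.18, 1.45, 2.93 and 0.818 for the MRL/+ mice. The Cy5 mice of MRL/+ were again the lowest of all. Its difference was 0.79 ± 0.33 in Fn14ko against MRL/+ (adjusted p = 0.196), and 1 of the 32 alternatives, without MRL/+ replicate 3, called it.

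None of the genes of the translation output passed the threshold at the gene level, though Eif4ebp1, Eif4ebp2 and Eif4e did under some alternatives. Rps6kb1, the main S6 kinase gene, differed from MRL/+ by 0.14 (MRL/lpr) and 0.26 (Fn14ko). Its relative Rps6kb2 read 0.736, 0.896, 0.783 and 0.660 for the MRL/lpr mice, against 0.60, 0.65, 0.693 and 0.341 for the Fn14ko mice, a difference of 0.47 ± 0.33 (adjusted p = 0.497), beside 0.583, 0.793, 0.414 and 0.772 for the MRL/+ mice. The groups overlapped. Its probes A_52_P182450 and A_55_P2002426 gave -0.29 and 0.76 in MRL/lpr against MRL/+, neither past the threshold. In the added single-probe fits A_55_P2002426 passed with the dark control background (0.90, adjusted p = 0.0113 from limma) and with Agilent's processed signal (1.05, adjusted p = 0.0239), where A_52_P182450 gave -0.07 and 0.45. Of the 4E-binding proteins, repressors of cap-dependent translation that mTOR inactivates, Eif4ebp1 differed by 0.34 ± 0.16 in MRL/lpr (adjusted p = 0.141) and Eif4ebp2, the form most abundant in brain, by -0.34 ± 0.19 (adjusted p = 0.212). Eif4e, the cap-binding protein they hold, differed by -0.16 in MRL/lpr and -0.11 in Fn14ko.

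**Figure D4:**
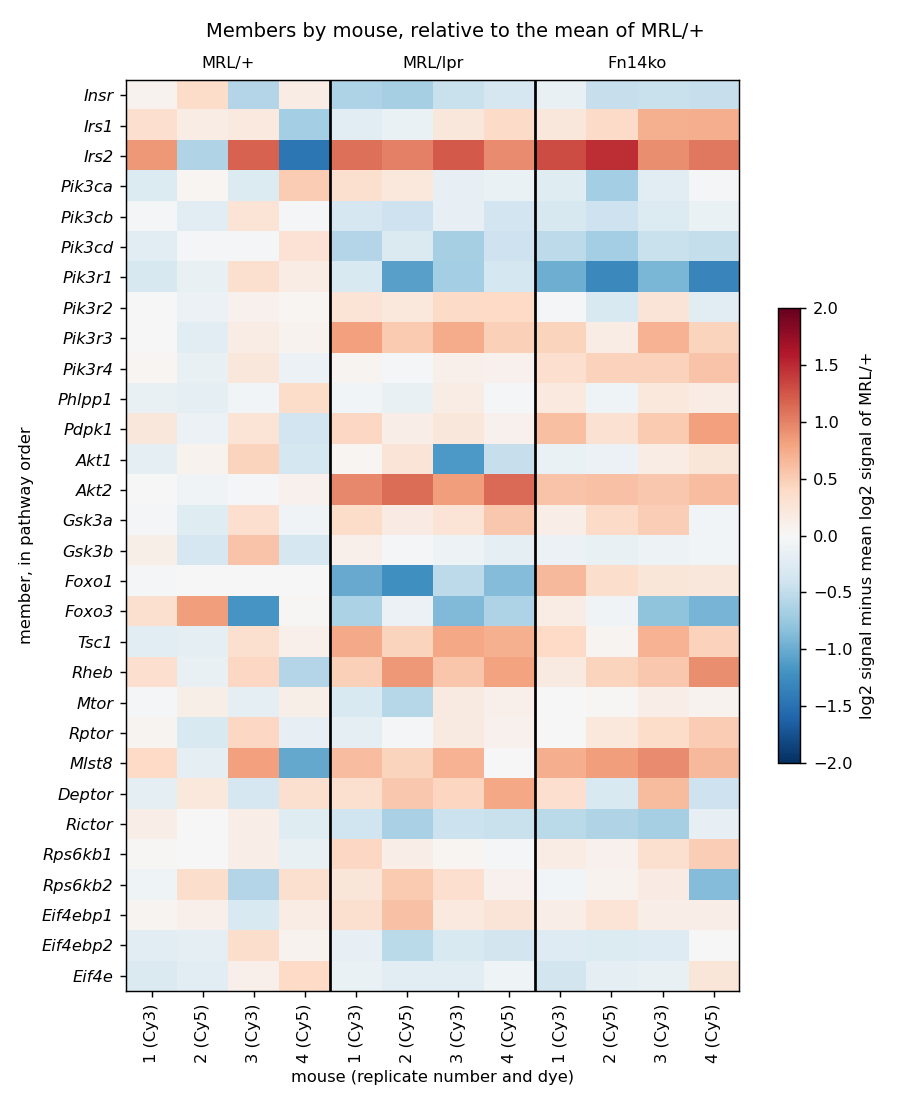
Log2 signal of the 30 measured genes in each mouse, minus the mean log2 signal of the 4 MRL/+ mice, with genes in pathway order and the dye of each mouse in brackets. Akt2 is raised in all MRL/lpr mice, Foxo1 is lowered in all MRL/lpr mice, and Irs2, Mlst8 and Rheb are lowest in the Cy5 mice of MRL/+.

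A wider list of 71 other pathway genes was tested beside the 33, of which 65 were measured. In MRL/lpr against MRL/+, 8 of 65 passed (12.3%, against 14.4% of all genes), 4 higher and 4 lower. Of these 8, only Eif4ebp3 passed without the Cy5 mice of MRL/+ (1.0, adjusted p = 0.0294 from limma). The highest were Ddit4l, a stress-induced inhibitor of mTOR complex 1 (1.17 ± 0.30, adjusted p = 0.0231 from limma), Inppl1, the lipid phosphatase SHIP2 (0.96 ± 0.19, adjusted p = 0.00754), and Eif4ebp3, another 4E-binding protein (0.78 ± 0.20, adjusted p = 0.0218). The lowest were Gab1, an adaptor of receptor tyrosine kinases that recruits PI3K (-1.02 ± 0.20, adjusted p = 0.00681), Foxo6, the FoxO factor most restricted to brain (-0.89 ± 0.22, adjusted p = 0.0182), and Prr5l, a partner of mTOR complex 2 (-0.65 ± 0.20, adjusted p = 0.0445). In Fn14ko against MRL/+, 0 of 65 passed (0.954% of all genes did), with 12 at an unadjusted p under 0.05 from limma and 2 by the methods' own criterion. In MRL/lpr against Fn14ko, 3 of 65 passed (4.62%, against 4.57% of all genes): Ddit4l (1.41 ± 0.30, adjusted p = 0.0167) and Sesn2, a stress-induced inhibitor of mTOR complex 1 (0.65 ± 0.16, adjusted p = 0.0374), were higher, and Gab1 (-0.97 ± 0.20, adjusted p = 0.0144) was lower. The median difference over the 65 was -0.03, 0.00 and -0.03.

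Gab1 and Ddit4l, like Foxo1, differed between MRL/lpr and each of the other groups. Gab1 read 0.473, 0.557, 0.623 and 0.545 for the MRL/lpr mice, 1.28, 0.938, 1.20 and 0.922 for the Fn14ko mice, and 0.940, 0.930, 1.25 and 1.37 for the MRL/+ mice. Ddit4l read 1.17, 2.04, 0.815 and 1.18 for the MRL/lpr mice, 0.533, 0.431, 0.543 and 0.366 for the Fn14ko mice, and 0.489, 0.641, 0.442 and 0.654 for the MRL/+ mice. For both, MRL/lpr did not overlap with either group, while Fn14ko and MRL/+ overlapped. The calls depended on the samples. Against MRL/+, without its Cy5 mice, Gab1 differed by -0.89 (adjusted p = 0.0643 from limma) and Ddit4l by 1.35 (adjusted p = 0.0915). Ddit4l also lost that call without MRL/+ replicate 4 (adjusted p = 0.103), without either MRL/+ array (0.0549 and 0.0636), without the array with replicates 1 and 2 of MRL/lpr (0.140) and with the 75th percentile (0.93, adjusted p = 0.0682). Against Fn14ko, Ddit4l lost its call without Fn14ko replicate 2 (1.30, adjusted p = 0.0736), among the Cy3 mice (0.86, 0.0873), with only these groups fitted (1.41, 0.0637) and with Agilent's processed signal (1.71, 0.0505), and Gab1 without either Fn14ko array (-0.94, 0.12 and -1.0, 0.0555). Both lost it without the array with replicates 1 and 2 of MRL/lpr (Gab1 -0.88, 0.0586, and Ddit4l 1.08, 0.0791) and without the filter on dim spots. Leaving out MRL/+ replicate 3 or 4, which does not move these differences, put their adjusted p at 0.0517 and 0.0515 for Gab1 and 0.0621 and 0.0929 for Ddit4l. Sesn2 lost its call in 15 alternatives, among them the Cy3 mice alone (0.57, adjusted p = 0.172).

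Cell markers were read beside these results. The excitatory neuron markers above all had signals, and so did the interneuron markers Gad1, Gad2 and Slc32a1. Of 8 interneuron markers, 3 exceeded MRL/+ in the MRL/lpr mice and none was lower: Pvalb by 1.03 (adjusted p = 0.0264 from limma), Vip by 1.26 (0.00292) and Npy by 1.37 (0.00565). Vip was also higher than in Fn14ko, by 1.09 (adjusted p = 0.0109). Their summed signal was 84.4 to 91.7 for the MRL/lpr mice, 81.4 to 119 for the Fn14ko mice and 63.5 to 89.3 for the MRL/+ mice. Of 8 oligodendrocyte markers, Ermn was higher in MRL/lpr than in MRL/+ (1.22) and Mbp (-1.63) and Cldn11 (-1.19) lower, with a median of -0.69. Against Fn14ko, Ermn was higher (1.41) and Cnp (-1.16) and Mobp (-1.18) lower, with a median of -0.80. They summed to 59.9 to 98.4, 76.5 to 94.7 and 75.3 to 90.9 in MRL/lpr, Fn14ko and MRL/+. Of 7 endothelial markers, Flt1 (1.08) and Slco1a4 (1.05) exceeded MRL/+ in the MRL/lpr mice and Slco1a4 (0.85) in the Fn14ko mice, with sums of 16.4 to 20.0, 9.69 to 18.0 and 10.3 to 13.0. None of 7 astrocyte markers passed. For 7 choroid plexus markers the summed signal varied widely within every group, at 6.87 to 99.9 for the MRL/lpr mice, 13.6 to 182 for the Fn14ko mice and 17.4 to 266 for the MRL/+ mice, and Clic6 was lower in MRL/lpr than in MRL/+ (-2.51, adjusted p = 0.0486) and than in Fn14ko (-2.96, adjusted p = 0.0494). For 7 striatal markers it was 19.6 to 41.6 for the MRL/lpr mice, 14.7 to 160 for the Fn14ko mice and 10.4 to 19.6 for the MRL/+ mice, with none past the threshold. The 5 blood markers measured, of 6, summed to 134 to 272 for the MRL/lpr mice, 92.2 to 154 for the Fn14ko mice and 77.9 to 109 for the MRL/+ mice. Of these the haemoglobin gene Hba-a1 was higher in MRL/lpr than in MRL/+, by 2.37 (adjusted p = 0.00456 from limma). The 5 lymphocyte markers measured, of 10, summed to 8.06 to 11.5, 5.10 to 8.20 and 7.02 to 14.7, and none of them passed in any comparison. Of 10 microglial markers, Aif1 was higher in MRL/lpr than in MRL/+ (1.17, adjusted p = 0.0270), and none passed in the other comparisons. The part of these differences in the results for the pathway genes was not tested.

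**Figure D5:**
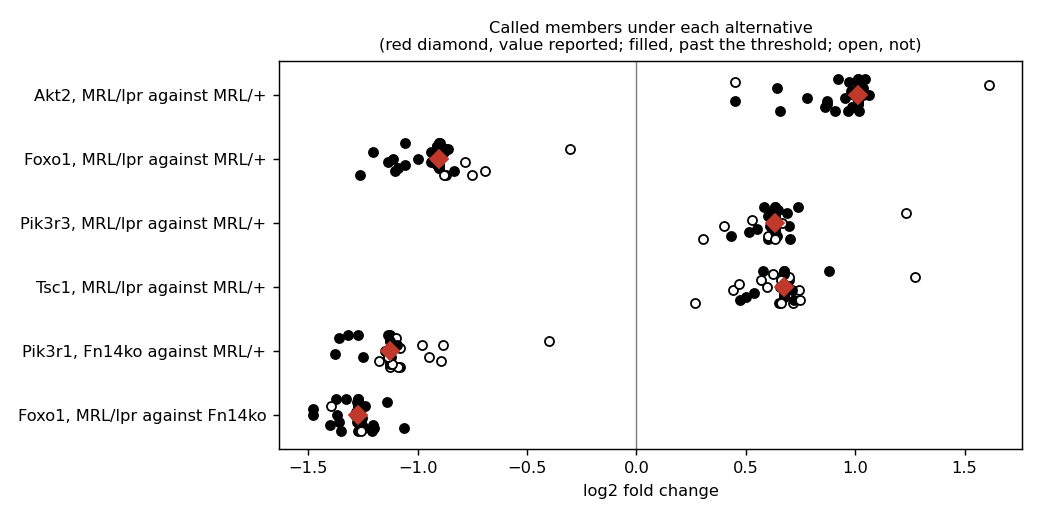
Log2 fold change of each called gene as reported (diamond) and under each alternative way of processing or fitting the data (circles, filled where past the threshold). No circle crosses 0, and Foxo1 in MRL/lpr against Fn14ko and Akt2 in MRL/lpr against MRL/+ keep the threshold in all but 2 alternatives each.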

How the data were processed

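The deposited files are the scanner output of Agilent Feature Extraction 12.1.0.3 per the file headers, with the mean foreground and median local background intensity of each spot in both channels, Agilent's processed signal and marks for uneven, outlying and well measured spots. The mean and background intensities are not normalized, while the processed signal is already background-subtracted and dye-normalized within the array. The deposited marks are 0 or 1. The 33 genes and all lists were chosen with earlier results of these data known. Group differences in Akt2 were part of those results and have no independent support here.

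Control spots, spots marked in any channel and spots whose foreground was less than 2-fold over local background in at least 1 of the 12 mice were removed, after the study's methods, leaving 24255 spots. Background was corrected by normexp with an offset of 50 (limma 3.58.1, R 4.3.3), each channel was divided by its median, and a gene's spots were then averaged linearly. Log2 values of all 12 mice were fitted with group and dye, the array as a random block and a variance trend, with Benjamini-Hochberg adjustment at 0.05. Each sample is 1 mouse, per the labels. Single genes also had exact two-sided permutation tests over the 70 splits of 8 mice. The code was tested on simulated data. Tables were handled and all splits enumerated in Python 3.11.15 with pandas 2.3.3, and plots drawn in matplotlib 3.10.9.

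Values in every mouse are given for Akt2, for each gene past the threshold, for genes whose probes disagree with 1 past the threshold, and for the 2 largest differences per comparison that missed it. Of the other pathway genes, the 3 highest and 3 lowest called are named, and values of Gab1 and Ddit4l in each mouse were added after they were seen. Alternatives covered the background, the signal column, the scaling, the filters, the averaging, the terms of the fit, the methods' own test and samples left out. The dark control background with its filter, and single probes with the dark background, with the processed signal or without the Cy5 mice of MRL/+, were chosen after seeing the data.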

Additional observations from a re-analysis of the deposited data

Results flagged for a closer look

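Foxo1 was flagged because its effect against MRL/+ differed between MRL/lpr and Fn14ko: the direct comparison gave -1.27 on the log2 scale (adjusted p = 0.00206 from limma), with every MRL/lpr mouse below and every Fn14ko mouse above all MRL/+ mice. In 3 of 90 groups of 4 mice, 1 mouse stood apart from the other 3 by Dixon's criterion, where chance gives about 1 in 20. These were Fn14ko replicate 2 for Eif4ebp1 (signal 0.912, the highest of its group), Fn14ko replicate 4 for Eif4ebp2 (4.11, the highest) and Fn14ko replicate 1 for Insr (0.507, the highest).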

How the results depend on the processing

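With 4 mice a group, a difference of about its own standard error could not be told from 0. Of the 90 pairs of gene and comparison, 35 kept their sign in every alternative fit. None of the 6 called differences changed its sign. Counts below are given for MRL/lpr against MRL/+, Fn14ko against MRL/+ and MRL/lpr against Fn14ko in that order, where 4, 1 and 1 of the 30 genes and 8, 0 and 3 of the 65 other pathway genes passed. The cause of the changes was not tested.

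With background subtraction the counts were 9, 6 and 2, and 15, 8 and 11 for the other pathway genes. The dark control background gave 9, 5 and 2, and 12, 7 and 9. Together with its own filter, chosen after seeing the data, it gave 5, 0 and 2 (4 at an unadjusted p under 0.05 in the second), and 6, 3 and 5. Of the 6609 genes left by that filter, 25.1%, 9.61% and 14% were called. Agilent's processed signal gave 6, 2 and 1, and 11, 4 and 7. Loess with quantile scaling gave 10, 4 and 3, and 22, 5 and 13. The 75th percentile gave 7, 1 and 1, and 10, 1 and 5, and moved the median of all genes from -0.10 to -0.34 in MRL/lpr against MRL/+, where Pik3r3 (0.40) and Tsc1 (0.44) lost their call. Without the filter on dim spots, limma called 0 of either list in all comparisons (6, 3 and 1, and 9, 3 and 3 at an unadjusted p under 0.05). Of the 29149 genes of that fit, only 0.0755%, 0 and 0.11% were called. Only spots well above background in all samples gave 6, 1 and 2, and 9, 3 and 6. With marked spots kept the second count fell to 0 (10 at an unadjusted p under 0.05 from limma), where 0.721% of all genes were called. Without the array block the counts were 9, 6 and 2, and 15, 4 and 9. Of all genes, 14.4%, 0.954% and 4.57% were called as reported, 29.7%, 16.4% and 16.5% with background subtraction, 24.0%, 13.6% and 14.6% with the dark background, 17.7%, 5.85% and 10.9% with the processed signal, 33%, 11.9% and 20.6% with loess, 17.2%, 3.49% and 5.47% with the 75th percentile, 29.7%, 11.5% and 16.1% for spots well above background, 30%, 10.9% and 10.3% without the array block, 32.3%, 6.99% and 9.39% with the replicate block and 5.03%, 0.0347% and 3.11% without the Cy5 mice of MRL/+. Higher and lower calls in the first comparison were 1044 and 1448 as reported, 2077 and 3063 with background subtraction, 1696 and 2455 with the dark background, 1124 and 1938 with the processed signal, 1572 and 4138 with loess, and 708 and 2260 with the 75th percentile. Counting genes with a called single probe added Gsk3b in the first comparison and gave 1 other pathway gene in the second. The Cy3 mice alone gave 2, 0 and 1, and 5, 0 and 2, and leaving out the Cy5 mice of MRL/+ gave 2, 0 and 1, and 1, 0 and 1 (in the second comparison 5 of the 30 in both, and 3 and 2 of the 65, had an unadjusted p under 0.05 from limma). Among the Cy3 mice, 7.84%, 0.959% and 2.71% of all genes were called. The methods' t-test with its limit on the ratio called 3, 3 and 2, and 6, 2 and 6, and after Benjamini-Hochberg adjustment 1, 1 and 0, and 1, 0 and 0. The share of all genes called by this test is not given, so these counts cannot be set against it.

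Replicate numbers are shared between groups and each number goes with one dye. The deviations of same-numbered mice correlated from -0.132 to 0.721, with 8 of 12 pairs over 0.1, and with the dye removed from -0.276 to 0.477, with 3 of 12 over 0.1, replicates 1 to 3 of Fn14ko and MRL/+. Since not every pair exceeded 0.1 and no label ties a number to a litter or day, the numbers were not used as pairs. A fit with the replicate number as a block gave 7, 2 and 1, and 17, 2 and 5, and Akt2 passed in Fn14ko against MRL/+ (0.58, adjusted p = 0.0316 from limma).

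Leaving out single mice gave 3 to 7, 0 to 3 and 1 of the 30 genes, and 2 to 15, 0 to 6 and 0 to 5 of the other pathway genes. MRL/+ replicate 3 gave the highest counts of the first 2 comparisons (7 and 3, and 15 and 6) and 0 other pathway genes in the third (11 at an unadjusted p under 0.05 from limma), and MRL/+ replicate 4 gave 3, 0 and 1, and 2, 0 and 0. The calls over all genes moved too. Without MRL/+ replicate 3, 32.1% of all genes were called in the first comparison and 2.9% in the third. In the second, 771 of 17302 were called higher and 1393 lower. Without MRL/+ replicate 4 the shares were 4.51%, 0.0462% and 2.06%. Leaving out whole arrays gave 1 and 2 of the 30 genes without either MRL/lpr array in the first comparison, and 0 without either Fn14ko array or the second MRL/+ array in the second (8, 7 and 11 at an unadjusted p under 0.05). In these fits 6.17% and 9.07% of all genes were called in the first comparison, and 0.965%, 0.121% and 0.0116% in the second. For the other pathway genes it gave 5 without the first array of MRL/lpr or of MRL/+ in the first comparison, 1 without the first MRL/+ array in the second, and 0 and 1 without the Fn14ko arrays in the third. The shares of all genes called there were 6.17% and 10.1%, 2.01%, and 0.954% and 3.49%.

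Akt2 in MRL/lpr against MRL/+ ranged from 0.45 to 1.61 and lost its call without the filter on dim spots (1.61, adjusted p = 0.158 from limma) and with log2 values averaged (0.45, 0.0773). In Fn14ko against MRL/+ it passed with background subtraction (0.54, adjusted p = 0.0157), the dark control background (0.52, 0.0209), no array block (0.58, 0.0179) and the methods' t-test with and without adjustment (0.58). In MRL/lpr against Fn14ko it passed when limited to spots well above background throughout (0.47, 0.0322), with the dark background and filter (0.46, 0.0438) and without the array block (0.43, 0.0414).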
